A study of Mus musculus with 2 samples.

Results

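The transporters described here are the 67 protein-coding genes, of 21755 in the GENCODE mouse annotation, whose symbol is Slc1a, Slc6a, Slc17a, Slc18a, Slc32a, Slc7a or Slc38a followed by a number. They were taken by symbol, with earlier results of these data known. The first 5 stems were grouped as neuronal families (41 genes) and Slc7a and Slc38a as general families (26 genes). Slc7a6os, named for lying opposite Slc7a6, was left out because it is not a carrier of that series. Histone H3 trimethylated at lysine 27 (H3K27me3) was mapped by chromatin immunoprecipitation and sequencing in E14TG2a.4, an embryonic stem cell line from a male mouse (strain 129/Ola, age labelled as embryonic day 3.5), with no treatment named. The study has 1 group, with biological replicates 1 and 2 of the same line and donor animal, and no second condition. All values below are therefore given for each replicate and no difference between conditions was tested.

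A promoter was called marked when a peak of each replicate's own list overlapped, by at least 1 bp, the window from 1 kb upstream to 1 kb downstream of the gene's annotated 5′ end (build mm10). A missing peak and the distance to the nearest peak refer to these lists unless another list is named. Signal values are the authors' own value of the strongest peak in the window, and a percentile is the share of peaks of the same list with a lower value. Sequencing depth is unknown for both lists, and a shallow library could lose a peak. Peak lists hold no expression values, and the cell type could be set only against the mark. The pluripotency genes Pou5f1, Nanog, Sox2 and Zfp42 had no peak in their windows, and Esrrb was marked. Of 5 fibroblast markers, which feeder cells would express, Col1a1, Col1a2, Thy1 and Pdgfra were marked and Col3a1 was not. Of 5 neuron markers Tubb3, Rbfox3, Syt1 and Snap25 were marked and Map2 was not, and the astrocyte markers Gfap, Aqp4 and S100b had no peak. Coverage of the marked genes differed, with 687 bp and 200 bp at Snap25 and 1923 bp and 1821 bp at Pdgfra. Of all protein-coding genes 26.1% were marked, and these short lists do not identify the cells.

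H3K27me3 is written by Polycomb repressive complex 2, and in embryonic stem cells it is known from many promoters of genes that come into use only in later lineages. Many Slc1 and Slc6 carriers take transmitters or amino acids up across the plasma membrane with the help of sodium. Those that take up transmitters can end or shape signalling at synapses. Some Slc17 carriers, Slc18 and Slc32 load transmitters into synaptic vesicles. Slc7 and Slc38 carriers supply amino acids to most tissues, and many Slc7 members work only in a pair with a heavy chain.

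The upstream sequence of 4 members shows the kinds of promoter involved: a vesicular carrier covered throughout (Slc32a1), a vesicular carrier where the bases covered in both replicates lay almost only downstream of the start (Slc17a6), and the marked and the unmarked general-family member with the highest CpG ratio (Slc7a6 and Slc7a5). Each run is the 250 bases before the annotated 5′ end, read 5′ to 3′ on the strand of the gene from RefSeq's GRCm38.p6 genome, with every CpG in capitals. They lie at chr2:158610517-158610766 (plus strand, Slc32a1), chr7:51621756-51622005 (plus, Slc17a6), chr8:106168607-106168856 (plus, Slc7a6) and chr8:121907695-121907944 (minus, Slc7a5). No annotated exon overlaps the runs of Slc17a6 and Slc7a6, the run of Slc32a1 overlaps exons of the noncoding gene Gm14204 on the other strand, and that of Slc7a5 overlaps an exon of the noncoding gene BC048644 on the other strand and lies within the long gene model Gm20388.
Slc32a1: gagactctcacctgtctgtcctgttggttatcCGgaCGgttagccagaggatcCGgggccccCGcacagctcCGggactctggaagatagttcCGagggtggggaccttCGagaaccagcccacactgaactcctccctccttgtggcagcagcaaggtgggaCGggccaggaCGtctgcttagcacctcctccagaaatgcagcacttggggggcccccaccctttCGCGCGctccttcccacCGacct
Slc17a6: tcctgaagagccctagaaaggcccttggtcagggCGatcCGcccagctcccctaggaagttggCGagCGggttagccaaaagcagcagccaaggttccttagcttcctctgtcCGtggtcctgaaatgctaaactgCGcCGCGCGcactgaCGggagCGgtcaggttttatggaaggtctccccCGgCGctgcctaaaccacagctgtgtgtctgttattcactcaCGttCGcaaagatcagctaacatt
Slc7a6: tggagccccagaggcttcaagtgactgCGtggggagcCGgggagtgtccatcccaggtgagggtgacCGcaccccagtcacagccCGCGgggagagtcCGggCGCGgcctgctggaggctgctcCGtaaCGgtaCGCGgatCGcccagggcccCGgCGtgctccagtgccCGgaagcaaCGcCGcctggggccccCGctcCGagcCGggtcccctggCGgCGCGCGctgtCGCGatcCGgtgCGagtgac
Slc7a5: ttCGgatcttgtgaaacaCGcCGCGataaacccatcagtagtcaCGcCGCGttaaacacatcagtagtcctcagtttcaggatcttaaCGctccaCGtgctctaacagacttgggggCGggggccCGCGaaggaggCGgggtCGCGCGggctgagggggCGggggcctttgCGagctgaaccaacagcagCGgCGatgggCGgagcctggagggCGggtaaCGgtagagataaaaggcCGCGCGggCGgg

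The runs hold 13 CpG in Slc32a1, 15 in Slc17a6, 29 in Slc7a6 and 27 in Slc7a5, against a median of 8 over all protein-coding genes. Peaks covered all 250 bases at Slc32a1 in both replicates. At Slc17a6 they covered 13 bases in replicate 1 and 37 in replicate 2, and at Slc7a6 154 and 120. No base was covered at Slc7a5 in either replicate. The CpG-rich runs of Slc7a6 and Slc7a5 thus stood on opposite sides of the call.

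Of the 67 transporters 28 (41.8%) were marked in both replicates, against 26.1% of all protein-coding genes. Replicate 1 had a peak at 29 and replicate 2 at 32. The neuronal families were marked at 20 of 41 genes (48.8%) and the general families at 8 of 26 (30.8%), a gap of 18.01 percentage points. By family the counts were 4 of 7 for Slc1, 11 of 21 for Slc6, 2 of 9 for Slc17, 2 of 3 for Slc18, the single Slc32 gene, 6 of 15 for Slc7 and 2 of 11 for Slc38. The gap depended on the list. It was 3.66 points with the authors' replicated list, where 13 of 26 general-family genes were marked, and 8.91 points with replicate 2 alone.

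Within the neuronal families the mark followed the substrate more closely than the family name. Carriers of glutamate, GABA, glycine, monoamines or acetylcholine, whether at the plasma membrane or the vesicle, were marked at 18 of 21 genes (85.7%). The remaining 20 genes of the neuronal families were classed under other substrates, such as other amino acids, taurine, creatine, phosphate, nucleotides or an unknown one. They were marked at 2 (10%), beside 26.1% of all protein-coding genes. Over all 67 genes, 10 of the 46 not classed as transmitter carriers were marked (21.7%). The class is not free of transmitters, since it holds Slc7a11, which exchanges cystine for glutamate, and Slc17a9, which loads ATP into vesicles. Substrates were assigned from textbook knowledge with earlier results of these data known, and that of Slc6a21 after its values were seen, so the split is a description. Under 10 other choices of window, list, threshold, replicate or start, 13 to 20 of the 21 transmitter carriers and 9 to 18 of the 46 others were marked. The share of all protein-coding genes moved too, from 13.96% to 33.3%. That of the 46 others exceeded it with 50% of the window covered (19.57% against 13.96%) and with the relaxed lists (39.13% against 33.3%). The same held for the replicated list (36.96% against 33.18%) and, barely, replicate 2 alone (30.43% against 30.22%). Under the remaining choices the 46 others stayed below all genes.

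**Figure D1:**
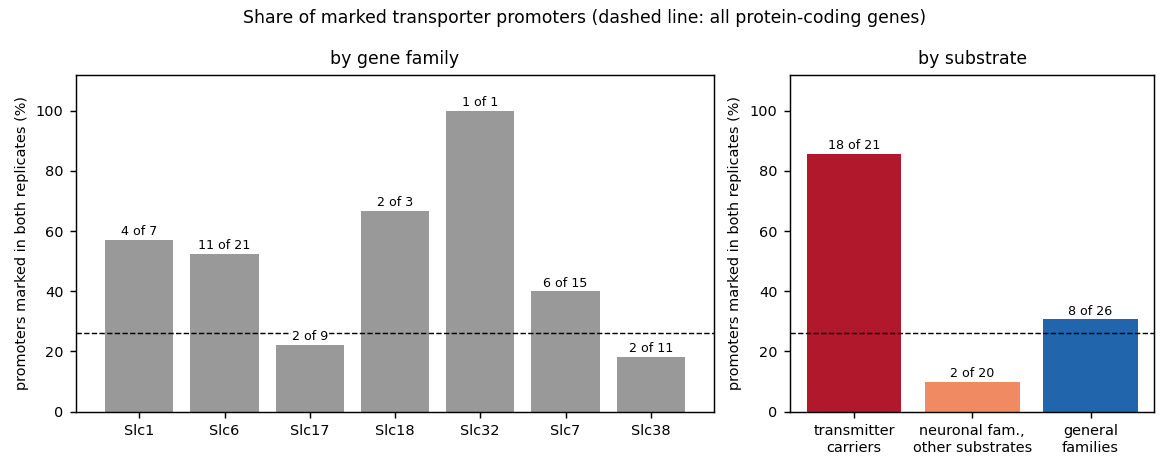
Share of promoters marked in both replicates (vertical axis, percent) for each of 7 families on the left and, on the right, for transmitter carriers, the other genes of the neuronal families and the general families, with the counts above the bars. The dashed line is the 26.1% of all protein-coding genes. The transmitter carriers stand at 85.7% and the other genes of the same families at 10%.

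The marked transporters were covered widely. The median covered length was 1817 bp in replicate 1 and 1694 bp in replicate 2, against 1251 bp and 1200 bp over all marked protein-coding genes. At least 50% of the window was covered in both replicates at 22 of the 67 transporters (32.8%), beside 14% of all protein-coding genes. Of the 28 marked, 19 had signal above the 90th percentile of both lists, and 42.6% of all marked genes did. These values describe members that passed the call and do not support it. In the plot of covered bases by member the replicates lay close together at most marked genes, with a median difference of 76 bp and a largest of 881 bp, at Slc38a11. Replicate 1 covered more bases at 20 of the 28, replicate 2 at 6, and they were equal at 2.

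**Figure D2:**
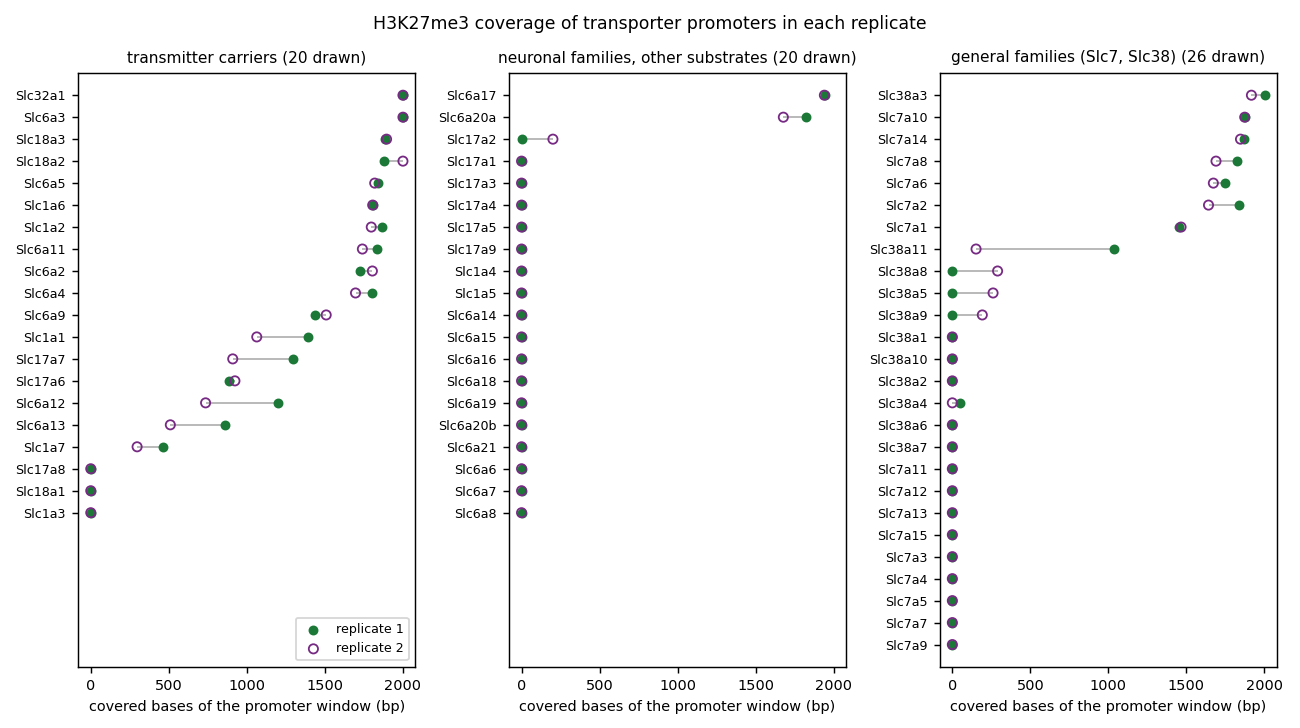
Bases of the promoter window under peaks (horizontal axis) for the transporters in replicate 1 (filled) and replicate 2 (open), with a grey line joining the replicates. Transmitter carriers are on the left, the other genes of the neuronal families in the middle and the general families on the right. All but 3 of the transmitter carriers drawn have peaks in both replicates, and 2 of the middle 20 do. A marked transmitter carrier is not drawn.

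Vesicular carriers of inhibitory and cholinergic neurons were covered over nearly the whole window. Slc32a1, which loads GABA and glycine into vesicles, was covered over every base of the window in both replicates, with signal values of 15.6 and 12.2, above 99.7% and 98.6% of the peaks of each list. Common bases, those under peaks of both replicates, made up 98.6% of the gene and formed, when stretches within 3 kb were joined, a domain of 16.3 kb (chromosome 2, 158605676 to 158621998). Slc18a3, which loads acetylcholine, had 1883 bp and 1896 bp covered, with signal values of 13.1 and 13.0, and 100% of its length lay under common peaks. Its start lies 1139 bp from that of Chat, the enzyme that makes acetylcholine, and both starts lay in 1 domain of 16.2 kb, so the mark cannot be assigned to either gene. Chat itself had 1965 bp and 1954 bp covered.

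Vesicular glutamate and monoamine carriers split among close relatives. Slc17a7 had 1296 bp and 910 bp covered, with signal values of 11.0 and 11.9 and all of the common bases downstream of the start. These bases lay in a domain of 25.8 kb that held the starts of Gfy and Pth2 but not that of Slc17a7. The domain thus cannot be assigned to 1 gene. Common peaks covered 63.4% of Slc17a7. Slc17a6 had 888 bp and 924 bp, with signal values of 7.67 and 7.52 and 824 of the 838 common bases downstream of the start base. At both of these main vesicular glutamate carriers the bases common to the replicates thus lay downstream of the start, or nearly so. Slc17a8, the other glutamate carrier of the family, had no peak nearer than 114643 bp in replicate 1 and 114559 bp in replicate 2. With the relaxed lists, however, its promoter was marked. Slc18a2, the vesicular monoamine carrier of neurons, had 1879 bp covered in replicate 1 and the whole window in replicate 2, with signal values of 9.13 and 9.83. Slc18a1, its relative known from neuroendocrine cells, had no peak within 42972 bp and 43082 bp, and its start lies 589 bp from that of Atp6v1b2, a subunit of the vesicular proton pump.

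All 3 monoamine uptake carriers were marked. The dopamine transporter Slc6a3 was covered over its whole window in both replicates, with signal values of 11.2 and 10.4. The serotonin transporter Slc6a4 had 1800 bp and 1697 bp covered and signal values of 12.9 and 14.3, above 98.6% and 99.6% of peaks. The noradrenaline transporter Slc6a2 had 1727 bp and 1805 bp, with 8.34 and 11.3, in a domain of 10.7 kb. The 3 promoters lie on chromosomes 13, 11 and 8 and were each covered over most of the window in both replicates.

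GABA uptake carriers of the plasma membrane ranged from wide to narrow coverage. Slc6a11, a carrier of astrocytes on chromosome 6, had 1835 bp and 1741 bp covered with signal values of 11.8 and 10.4. Slc6a13 and Slc6a12, known mostly from liver and kidney, lie 42.8 kb apart elsewhere on that chromosome and were covered less. Slc6a13 had 859 bp and 510 bp, and Slc6a12, which also carries betaine, 1201 bp and 736 bp, with signal values of 4.38 to 5.21. Neither start of these neighbours lay under common peaks, and neither kept the call under the rule of 50% coverage.

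Both glycine carriers were marked. Slc6a5, the carrier of glycinergic neurons, had 1840 bp and 1820 bp covered, signal values of 12.1 and 11.3, and a domain of 16.4 kb (chromosome 7, 49902126 to 49918471). Slc6a9, the more widespread carrier, had 1437 bp and 1509 bp with lower signal values of 5.21 and 5.78, in a domain of 20.2 kb. The long domain at Slc6a9 was broken, and 4054 of the 10001 bases within 5 kb of its start were covered in both replicates, against 8091 at Slc6a5.

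Glutamate uptake carriers ranged from nearly full to no coverage. Slc1a2, the main carrier of astrocytes, had 1865 bp and 1798 bp covered, with signal values of 9.04 and 7.81. Slc1a6, the carrier of Purkinje cells, had 1812 bp and 1807 bp, with signal values of 9.32 and 11.9. Slc1a1, the carrier of many neurons, had 1391 bp and 1064 bp, with signal values of 7.67 and 6.65. Slc1a7, known from the retina, was the most weakly marked of the transmitter carriers, with 461 bp and 297 bp, signal values of 3.56 and 4.05, and 176 bp in common. It lost the call with a window of 0.5 kb. Slc1a3, the carrier of glia and radial glia, had no peak within 1 kb of its 5′ end, and its nearest peaks lay 1781 bp and 1117 bp away. The amino acid exchangers Slc1a4 and Slc1a5 of the same family had no peak in either window, and those nearest to Slc1a5 lay 5090 bp and 19386 bp from its start.

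Amino acid carriers of the Slc6 family were marked at 2 of 8 genes, near the 26.1% of all protein-coding genes. The marked genes were Slc6a17, a vesicular carrier of neutral amino acids in neurons, with 1945 bp and 1941 bp covered and signal values of 12.3 and 14.5, and Slc6a20a, a carrier of proline, with 1822 bp and 1678 bp and signal values of 10.2 and 9.25. The start of Slc6a20a lies 446 bp from that of Ccr9, a chemokine receptor on the other strand, in the same domain. Slc6a20b, the close copy 46.3 kb from Slc6a20a, had no peak within 40903 bp in replicate 1 and 42428 bp in replicate 2. Reads can be hard to place between close copies, so this contrast is uncertain. Slc6a7, the proline carrier of the brain, had none in its window, with the nearest 2523 bp and 2907 bp away. Slc6a14, Slc6a15, Slc6a18 and Slc6a19, and the orphan carriers Slc6a16 and Slc6a21, also had none. The nearest peaks of the orphan pair were close, 2688 bp and 3741 bp from the start of Slc6a16 and 2664 bp and 2278 bp from that of Slc6a21. Neither did Slc6a6, which carries taurine, nor Slc6a8, which carries creatine.

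On chromosome 13, Slc6a3 lies 141 kb from Slc6a18 and, beyond it, Slc6a19, carriers of neutral amino acids in kidney and intestine. The first was fully covered and the others had no peak in their windows. On chromosome 7, Slc17a7 was marked while Slc6a16 and Slc6a21, 77.1 kb and 114 kb away, were not.

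The rest of the Slc17 family was without the call. Slc17a1, Slc17a2, Slc17a3 and Slc17a4, carriers of phosphate and urate, lie in a cluster on chromosome 13. Slc17a2 had 201 bp covered in replicate 2 alone, and the others had no peak. Slc17a5, the sialic acid carrier of lysosomes, and Slc17a9, which loads ATP into vesicles, had none either. With Slc17a9 counted among the transmitter carriers, a choice made after its call was seen, the gap in share to the other genes was 59.6 percentage points, and without it 64.0 points.

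Of the cationic amino acid carriers of the Slc7 family 3 of 5 were marked, beside 26.1% of all protein-coding genes. Slc7a2, an arginine carrier, had 1836 bp and 1642 bp covered with signal values of 9.81 and 8.65, and Slc7a14, known from the nervous system and retina, had 1868 bp and 1847 bp with signal values of 11.0 and 11.9. Slc7a1, the widely used arginine and lysine carrier, had 1455 bp and 1466 bp with lower signal values of 6.03 and 6.36. Slc7a3 had no peak nearer than 25941 bp.

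The call of Slc7a4 depended on which start was taken. Its annotated 5′ end (chromosome 16, 17583214, minus strand) had its nearest peaks 4929 bp and 4719 bp away, but the annotation places 8 of its 9 transcript starts 6216 to 6994 bp downstream, and all 8 were marked, with coverage reaching the whole window in replicate 1 and 1951 bp in replicate 2. Common peaks covered 41.8% of the gene. Of the other members without the call, Slc1a3 had 1 of 8 starts marked, 1176 bp downstream, with 249 bp and 501 bp covered, and Slc38a5 had 2 of 4. Counting any transcript start, 31 of the 67 transporters were marked (46.3%), beside 29.4% of all protein-coding genes.

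**Figure D3:**
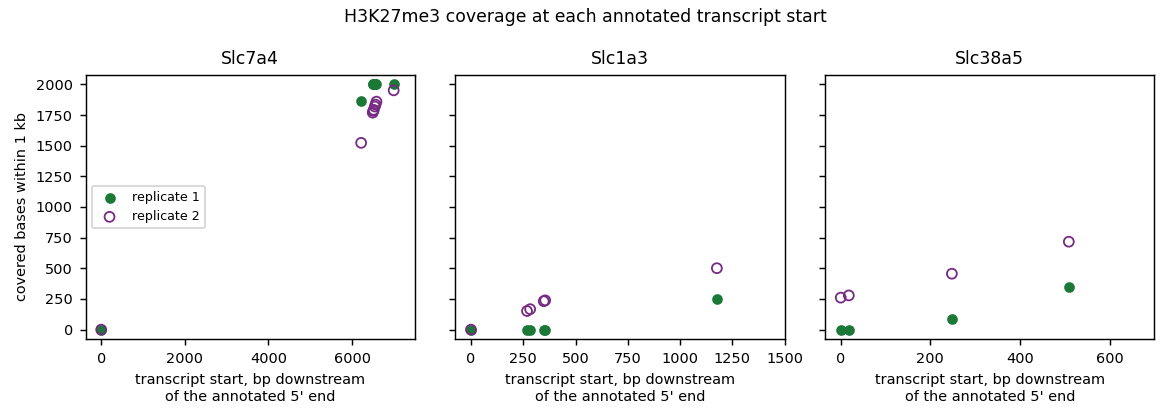
Bases under peaks within 1 kb of each annotated transcript start (vertical axis) against the distance of that start from the annotated 5′ end of the gene (horizontal axis, bp), for Slc7a4, Slc1a3 and Slc38a5 in replicate 1 (filled) and replicate 2 (open). The 8 downstream starts of Slc7a4 have at least 1523 bp covered in each replicate, and its first has none. Slc1a3 has 2 further starts, 59258 and 67517 bp downstream and without a peak, that are not drawn.

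Among the 10 light-chain genes of Slc7, 3 were marked (30%), near the 26.1% of all protein-coding genes. Slc7a10, a carrier of D-serine and small neutral amino acids in the brain, had 1877 bp and 1874 bp covered and signal values of 14.3 and 13.3, above 99.4% and 99.2% of peaks. Slc7a8, a carrier of neutral amino acids in kidney and other epithelia, had 1827 bp and 1690 bp with signal values of 9.94 and 10.5. Slc7a6 had 1747 bp and 1673 bp with 7.67 and 7.81. No peak lay in the windows of Slc7a5, the large neutral amino acid carrier of dividing cells, or of Slc7a11, which exchanges cystine for glutamate. The same held for Slc7a7, Slc7a9, Slc7a12, Slc7a13 and Slc7a15. Slc3a2 and Slc3a1, the heavy chains that pair with many Slc7 carriers, had no peak in their windows.

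The Slc38 family, sodium-coupled carriers of glutamine and other neutral amino acids, held 1 strongly marked gene. Slc38a3, a glutamine carrier of astrocytes, liver and kidney, was covered throughout in replicate 1 and over 1917 bp in replicate 2, with signal values of 10.4 and 13.3, and the longest domain of all members, 33.1 kb (chromosome 9, 107657256 to 107690353), which also held the start of Gnat1. Slc38a11 had 1033 bp in replicate 1 and 152 bp in replicate 2 with no base in common, so its call rests on separate peaks, of signal values 5.75 and 3.67. Slc38a5, Slc38a8 and Slc38a9 had a peak in replicate 2 alone (261, 290 and 192 bp), and Slc38a4 in replicate 1 alone (50 bp). Slc38a1, Slc38a2, Slc38a6, Slc38a7 and Slc38a10 had none. With Slc17a2, these 5 single-replicate genes made up 7.46% of the transporters, near the 5.85% of all protein-coding genes.

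Around the start the mark lay on both sides, with somewhat more of it downstream. The median of common bases over marked transporters was 802 in the 1 kb upstream and 892.5 in the 1 kb downstream. Over all marked protein-coding genes these medians were 473 and 651. Common bases were more numerous in the 1 kb downstream than in the 1 kb upstream at 20 of the 28 marked transporters, fewer at 5 and equal at 3. Over all marked protein-coding genes 58.6% had more downstream and 33.6% more upstream. The start base itself was covered in both replicates at 15 of 28, and at 36.7% of all marked genes. In the profile around the starts, Slc7a1, Slc7a6, Slc7a14 and Slc6a11 had peaks on both sides and a start base without coverage in either replicate. Common peaks formed domains of 10 kb or longer at 7 members, Slc38a3, Slc17a7, Slc6a9, Slc6a5, Slc32a1, Slc18a3 and Slc6a2. That is 25% of the marked transporters, close to the 21.2% of all marked protein-coding genes with such a domain.

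**Figure D4:**
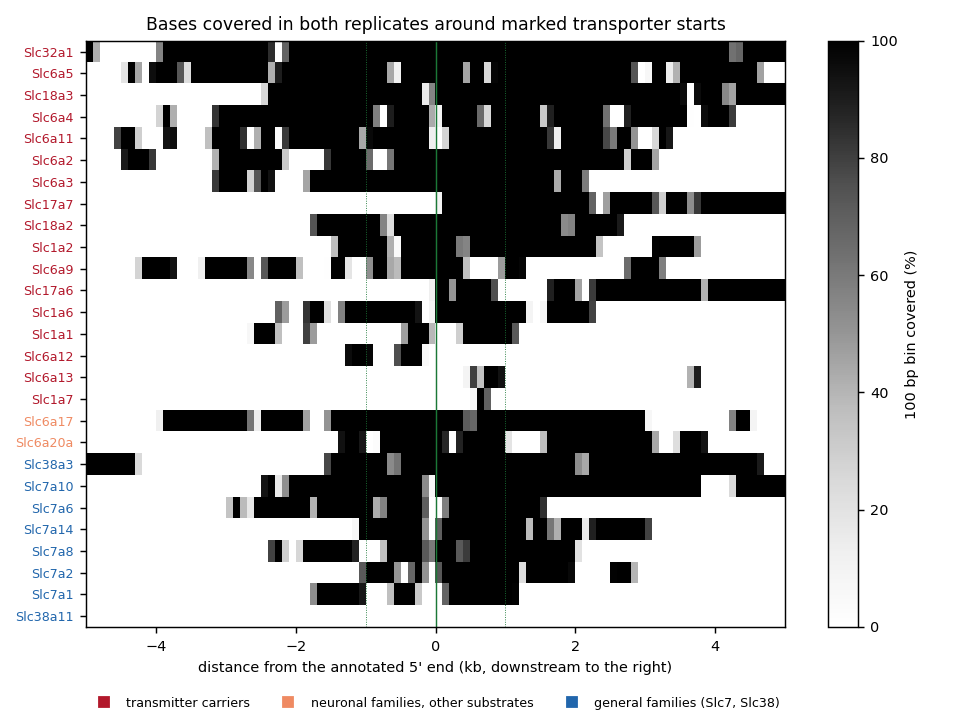
Share of each 100 bp bin covered by peaks of both replicates (grey scale, percent) within 5 kb of the annotated 5′ end (horizontal axis, kb, downstream to the right) for the marked transporters but 1, with names coloured by substrate group and dotted lines at 1 kb. Slc32a1 is covered over 8882 bases of this stretch, Slc17a7 and Slc17a6 almost only downstream of the start, and Slc38a11 has no base common to the replicates.

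Marked and unmarked members overlapped in CpG ratio, while the marked share of members rose from the lowest to the highest CpG class. Whether CpG content accounts for the calls was not tested. The ratio of observed to expected CpG within 500 bp of the 5′ end had a median of 0.578 over marked transporters and 0.514 over the others, against 0.634 and 0.474 over all protein-coding genes. With all protein-coding genes ranked into 3 equal classes, the lowest class held 16 transporters, of which 3 were marked (18.8%, against 10.5% of all genes in that class). In the middle class 14 of 35 were marked (40.0%, against 39.3%), and in the highest 11 of 16 (68.8%, against 28.5%). The unmarked members of the highest class were Slc7a5, with the ratio 1.03, Slc38a2 with 1.02, Slc6a8, Slc17a5 and Slc1a4. Slc38a3 was nearly fully covered at a ratio of 0.22. The ratio was taken at the annotated 5′ end and so shares the limit shown by Slc7a4.

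**Figure D5:**
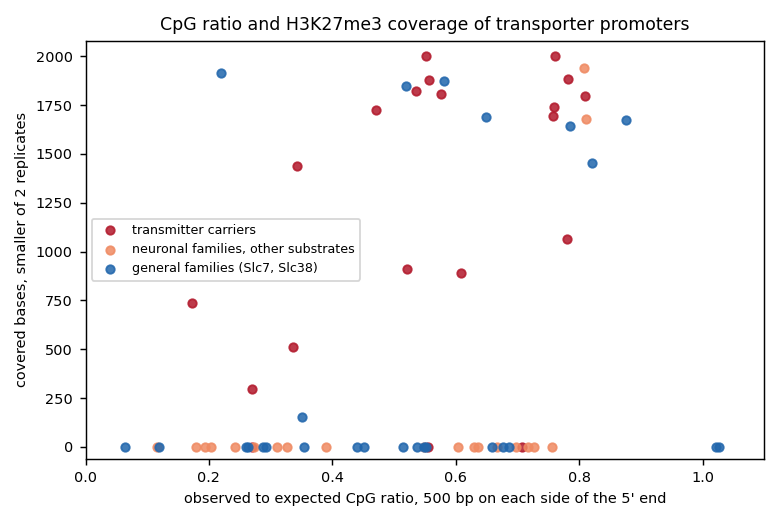
Covered bases of the promoter window, the smaller of the replicates (vertical axis), against the observed to expected CpG ratio (horizontal axis) for the transporters but 1, coloured by substrate group. Members with no coverage run from a ratio of 0.0639 to 1.03, and the 2 at the right edge are Slc7a5 and Slc38a2.

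Short motifs were rare in these windows. The amino acid response element TGATGCAAT, searched on both strands of the promoter window, was found at 2 of the 67 transporters, Slc38a2 and Slc7a3, both without a peak, and at 1.12% of all protein-coding genes. The core of the RE1 element, CAGCACC and GGACAG separated by 2 bases of any kind, was found at none of the 67 and at 0.244% of all genes. A match is a description of letters and not of binding.

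Other genes of transmitter handling were marked in part. Of 11 genes of transmitter synthesis 6 were marked: Gad2, which makes GABA (1891 bp and 1944 bp covered), Th of the catecholamines (1534 bp and 1487 bp), Pnmt, which makes adrenaline (the whole window in both), Hdc (237 bp and 336 bp), Chat and the choline carrier Slc5a7 (1363 bp and 1390 bp). Gad1, Ddc, Dbh and Tph1 had no peak, and Tph2 had one in replicate 1 alone. Among genes of breakdown and recycling, Abat, Aldh5a1 and Ache were marked, while Maoa, Maob, Gls2 and Glul had no peak. Of 8 amino acid carriers from other families 6 were marked: Slc36a1, Slc36a2, Slc36a4, Slc43a1, Slc43a3 and Slc16a10. Most were covered narrowly, Slc36a1 over 678 bp and 293 bp and Slc43a1 over 541 bp and 574 bp, and Slc36a4 had the widest coverage of the 6, 1180 bp and 1681 bp. Each share stands beside 26.1% of all protein-coding genes.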

How the data were processed

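Peak lists on build mm10 from 1 sample per biological replicate were analysed. Per the text deposited with the samples, a pseudoreplicated list was derived for each replicate on its own, and further lists for both libraries. Aligner, peak caller, thresholds and any control: not given in the sources used here. In the deposited peak lists each peak carries a signal value, of unstated scaling, with −log10 p and −log10 q. Signal was used only to describe peaks within a list. The lists of replicates 1 and 2 held 63651 and 98582 peaks over 53.6 and 58.4 Mb, at unknown depth.

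Gene starts came from GENCODE mouse release 21, which uses the same build, for the 19 autosomes and X. Covered bases lie under merged peaks, and domains join common bases within 3 kb. Members, gene lists and roles were chosen with earlier results of these data known, so no gene-set test was made and shares stand beside those of all protein-coding genes. Every member but 1 is named, with its values where it has a peak. That member and 2 listed genes of transmitter breakdown are counted in the totals but not reported here. The alternatives were other windows (0.5 and 2.5 kb), peaks with −log10 q from 2 upward, relaxed, replicated or combined lists, single replicates, 50% coverage, any transcript start, grouping by substrate, and any symbol suffix. Coverage code was tested on simulated data. Tools were Python (3.11.15) with pandas (2.3.3), NumPy (2.4.6), pysam (0.24.0), Matplotlib (3.10.9) and SciPy (1.17.1).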

Additional observations from a re-analysis of the deposited data

How the results depend on the processing

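The number of marked transporters ranged from 22 with 50% of the window covered to 38 with the relaxed lists of the first run. The neuronal count stayed within 1.5 times the value reported under every alternative run, and the general count rose to 13 with the relaxed lists and to 13 with the replicated list. The gap in share between neuronal and general families kept its sign under every alternative, but it is the value that depends most on processing. It was 12.8 percentage points with a window of 2.5 kb, 11.0 with the relaxed lists, 3.66 with the replicated list, 8.91 with the list of both libraries together, 9.66 with 50% of the window covered and 12.8 with any transcript start. Leaving out a replicate gave 8.91 to 14.2 points. Grouping by substrate in place of family gave 64.0 points, and 59.6 with Slc17a9 moved, an alternative added after seeing the data. The median covered length over marked members was 1660 bp in common and 1831 bp in the list of both libraries together. These are unlike measures, since bases in common cannot exceed those of either replicate (medians of 1817 bp and 1694 bp). Why the counts and the gap moved was not tested. Of the 28 marked transporters, 22 were marked under all 10 alternatives that bear on a single call, and of the 39 others 28 were marked under none. Several of these outcomes were fixed in advance. A marked gene cannot lose its call with the 2.5 kb window, a single replicate or any transcript start. An unmarked gene cannot gain it with the 0.5 kb window, the q threshold or 50% coverage. The 22 are the members that passed the 50% rule, so their count adds nothing to that rule. With depth unknown, a missing peak sets no limit on the mark.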

Other observations

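The transporters without a call in both replicates included 11 that were marked under at least 1 alternative. Slc38a5 was marked under 6 of 10 alternatives, Slc38a4 and Slc38a8 under 4, and Slc1a3, Slc6a7 and Slc7a4 under 3. Slc17a8 was marked in the relaxed lists alone, and with it and Slc1a3 those lists marked 20 of the 21 transmitter carriers, all but Slc18a1. In the same lists 33.3% of all protein-coding genes were marked. Slc7a11 and Slc17a1 were marked with the relaxed lists and the replicated list and under no other alternative.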
